A study of Bos taurus with 8 samples.

Results

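The let-7 and miR-98 family was described in rumen fluid through its 10 bovine entries, bta-let-7a-5p, bta-let-7a-3p, bta-let-7b, bta-let-7c, bta-let-7d, bta-let-7e, bta-let-7f, bta-let-7g, bta-let-7i and bta-miR-98. They were chosen by name, as every entry that begins with bta-let-7 plus bta-miR-98, out of 565 miRNA entries listed in at least 1 library. Each of the 10 members had at least 10 reads in every library, as did 278 of the 565 entries, and 377 entries reached 10 reads in at least 1 library. Small RNA was sequenced in rumen fluid from 4 Holstein cows that were ruminally cannulated, not lactating and 10 years old on average. Each cow was sampled at the end of a week on the forage diet (0% concentrate) and again on the first day at the full high-grain diet (HG diet, 65% concentrate). The change of diet was made in steps, over a week of adaptation before that day. Both samples were taken 4 h after feed was offered in the morning. This gave 4 libraries per diet. Equal replicate numbers were read as 1 cow, on the strength of the labels and the design. The cows had served as control animals of a parallel study, and all of them received the diets in the same order, so diet and time cannot be told apart.

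Let-7 was first known as a regulator of developmental timing in worms, and in mammals it is a family of genes that give nearly identical mature miRNAs. All 5p members, miR-98 included, share the seed, the stretch near the 5′ end by which a miRNA pairs with messenger RNA, so that their predicted targets overlap widely. The RNA-binding protein LIN28 blocks the maturation of let-7 precursors in stem cells, and let-7 accumulates in differentiated tissue and in blood, where known targets include RAS genes and HMGA2. The 3p arm, the other strand of the hairpin, has another seed and is usually degraded.

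The libraries held 331864 to 522804 miRNA reads on the forage diet and 300116 to 390774 on the HG diet, 6.67% to 29.3% of all reads. Levels are given as reads per 1000000 miRNA reads of the library (RPM), and intervals of single libraries cover counting error only, because amplified reads are not independent molecules. HG replicate 2 stood apart. Over the 278 entries with at least 10 reads in every library, its median absolute log2 ratio to the mean of the other 7 libraries was 0.36, and for each of the others the same measure was 0.08 to 0.11. Summed markers of erythroid cells stood at 149756 RPM in HG replicate 2 and at 198457 to 206066 in the other 7 libraries, with all 3 markers below them. Leukocyte markers were also lower there (18435 RPM against 22283 to 22975; 3 of 5 below, 2 above). Epithelial markers (27954 against 20407 to 21317; 4 of 6 detected markers above, 1 below, bta-miR-203 at 0) and markers of smooth muscle and stroma (89700 against 64939 to 69990; 3 of 5 above) were higher. The part of this shift in the values of HG replicate 2 below was not tested, and results that rest on this library are given with and without it. In such bulk samples, fewer cells of a type and less RNA per cell cannot be told apart.

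By the bovine gene table (assembly ARS-UCD2.0, read only for names and adjacency), the members came from 12 genes, 11 let-7 genes and MIR98. Bta-let-7a-5p is encoded by 3 of them and bta-let-7f by 2, so that reads of these 2 entries cannot be assigned to a locus. MIRLET7A-1, MIRLET7F-1 and MIRLET7D follow each other next to ZNF169. MIRLET7F-2 and MIR98 lie side by side inside HUWE1, a ubiquitin ligase gene, and MIRLET7G lies inside WDR82. MIRLET7E lies between MIR99B and MIR125A, MIRLET7C next to MIR99A, MIRLET7A-2 next to MIR100, and MIRLET7I between PPM1H and MON2.

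The coordinates that the count tables gave are those of UMD3.1. Bta-let-7f was placed at chrX:96383539-96383560 on the minus strand in all 8 libraries, and bta-miR-98 at chrX:96382649-96382670 on the same strand. Between these listed positions lay 868 bases. Bta-let-7g was placed at chr22:49189344-49189365 (plus strand), bta-let-7i at chr5:51209086-51209107 (minus strand) and bta-let-7b at chr5:117120190-117120211 (plus strand). Bta-let-7d was placed at chr8:86887438-86887459 (plus strand), bta-let-7c at chr1:19930469-19930490 (minus strand) and bta-let-7e at chr18:58015043-58015063 (plus strand). For the multi-copy entries the tables kept 1 locus per library, and for both let-7a entries which one varied. Bta-let-7a-5p was listed at chr15:33347573-33347594 (let-7a-2, minus strand) in 4 libraries and at chr8:86884877-86884898 (let-7a-1, plus strand) in the other 4. Bta-let-7a-3p was listed at chr5:117119436-117119456 (let-7a-3, plus strand) in 4 libraries and at chr8:86884928-86884948 (let-7a-1, plus strand) in 4. The listed locus of a multi-copy entry therefore does not show where its reads came from. For let-7f, let-7i and let-7c, all listed on the minus strand, the 5p arm was listed at lower coordinates than the 3p arm. A 5p arm on that strand has the higher coordinates, so minus-strand positions are given as listed and may be displaced within the hairpin.

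The family was led by 3 members. Counted in full, that is with a read scored once at every entry it matches, bta-let-7f had 108015 reads over the 8 libraries, bta-let-7a-5p 100055 and bta-let-7g 75286, which put them at ranks 5, 6 and 10 of the bovine entries. Together they held 76.4% to 78.0% of the family's full reads in each library. Bta-let-7i (34918 reads, rank 19) and bta-let-7b (22419 reads, rank 31) followed. Bta-miR-98 had 8898 reads, bta-let-7d 7982, bta-let-7c 5117 and bta-let-7e 2061, at ranks 53, 58, 75 and 105. The single 3p member, bta-let-7a-3p, had 687 reads and rank 134.

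The order of the levels was steady from library to library. Mean RPM over the 8 libraries fell from 33476 ± 885 (SD, n = 8) for bta-let-7f to 31093 ± 353 (SD, n = 8) for bta-let-7a-5p, 23291 ± 1341 (SD, n = 8) for bta-let-7g and 10836 ± 213 (SD, n = 8) for bta-let-7i. It was 6979 for bta-let-7b, 2746 for bta-miR-98, 2471 for bta-let-7d, 1599 for bta-let-7c, 648 for bta-let-7e and 216 for bta-let-7a-3p. Without HG replicate 2 the values were 33781 ± 211 (SD, n = 7) for bta-let-7f, 31089 ± 382 (SD, n = 7) for bta-let-7a-5p, 23742 ± 441 (SD, n = 7) for bta-let-7g and 10846 ± 228 (SD, n = 7) for bta-let-7i, with a mean of 622 for bta-let-7e and 192 for bta-let-7a-3p. Only 2 pairs of neighbours in this order had overlapping ranges. Bta-let-7f lay above bta-let-7a-5p in 8 of 8 libraries, by a factor of 1.01 to 1.11, and bta-miR-98 lay above bta-let-7d in 7 of 8, with a ratio of 0.961 to 1.28. Every other neighbour was separated in all 8 libraries, and leaving out HG replicate 2 left the order as it was.

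**Figure D1:**
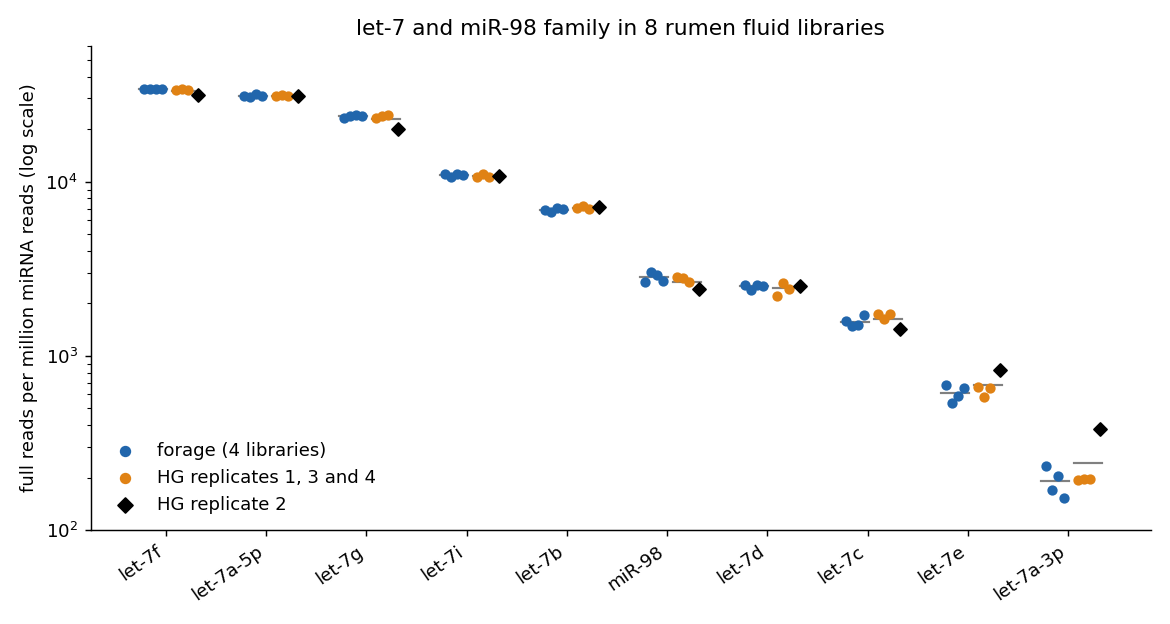
Full RPM (y axis, log scale) of the 10 members (x axis, ordered by their mean), with 1 point per library and grey lines at the mean of each diet. The members spread from 154 to 33986 RPM, the 2 diets lie on each other, and HG replicate 2 (black diamonds) lies above the other libraries for let-7e and let-7a-3p and below them for let-7f, let-7g, miR-98 and let-7c.

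A read can match more than 1 entry or locus, and the tables hold a second count, adjusted for multiple mapping and called divided reads here. Its exact rule is not given in the sources used here, and the ratio of full to divided reads is read as the mean number of places a read was assigned to. Divided reads summed to 16.7% of the full reads for bta-let-7a-5p in every library, a ratio of full to divided reads (the divisor) of 5.98 over all 8. The divisor was 3.87 for bta-let-7f and 3.76 for bta-let-7a-3p. It was close to 2 for bta-let-7g (2.01), bta-let-7i (2.004), bta-let-7d (2.02), bta-let-7b (2.02) and bta-let-7e (2.09), it was 2.35 for bta-let-7c, and it was 1.005 for bta-miR-98. Bovine and human entries were both searched, and apart from bta-let-7c and bta-miR-98 the divisors of the 5p members lay close to the number of their genes times 2, the number of species. In fact 7 human entries (hsa-let-7b-5p, hsa-let-7c-5p, hsa-let-7d-5p, hsa-let-7e-5p, hsa-let-7f-5p, hsa-let-7g-5p and hsa-let-7i-5p) held in each library exactly as many reads as the bovine member of the same name. No human entry for let-7a-5p or miR-98 was listed, although bta-let-7a-5p had the largest divisor. Among the 5p members, the divisor of bta-let-7c lay farthest from a whole number.

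The choice of count changed the order within the family. The divided count does not separate reads shared between members from reads that match copies of 1 gene or a human entry. By divided reads bta-let-7g came first, with a mean of 11614 RPM, ahead of bta-let-7f (8657), bta-let-7i (5408), bta-let-7a-5p (5199), bta-let-7b (3445) and bta-miR-98 (2732). Bta-let-7d (1225), bta-let-7c (678), bta-let-7e (311) and bta-let-7a-3p (58.0) kept their places, and 6 of 10 members had the same rank by both counts. Among all bovine entries, bta-let-7f moved from rank 5 to 18 and bta-let-7a-5p from 6 to 23, bta-let-7g stayed at 10, and bta-miR-98 moved up from 53 to 44. Only bta-let-7i and bta-let-7a-5p had overlapping ranges by divided reads, with bta-let-7i above in 8 of 8 libraries.

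**Figure D2:**
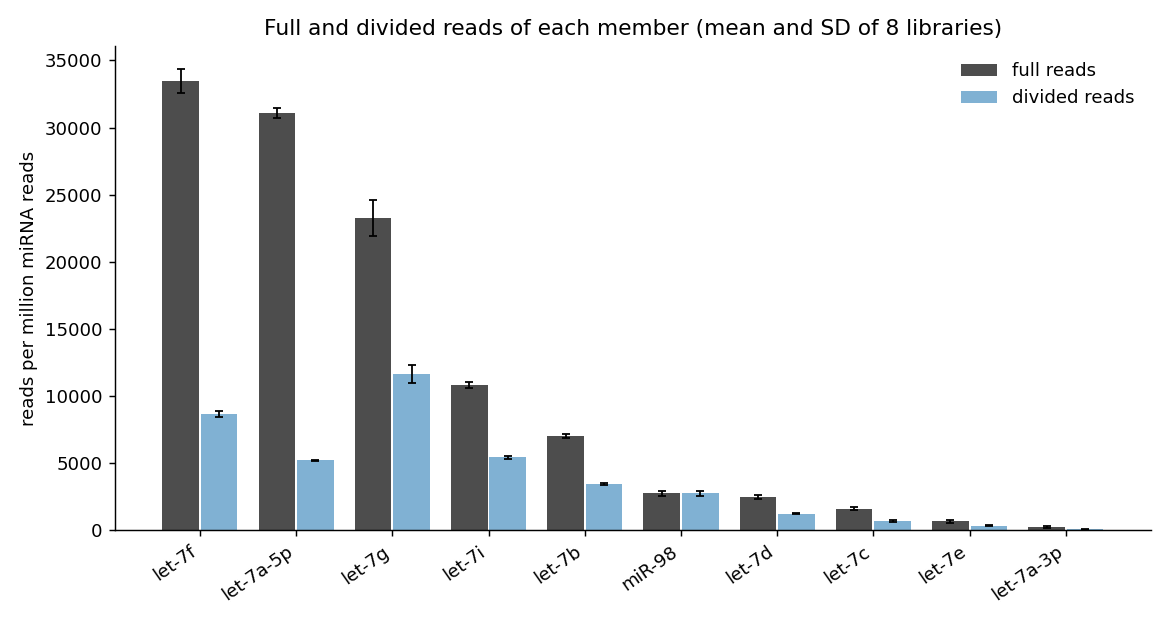
Mean RPM (y axis, from 0) of each member over the 8 libraries, as full reads (dark bars) and as divided reads (light bars), with error bars of 1 SD. Bta-let-7a-5p and bta-let-7f are tallest in full reads and bta-let-7g in divided reads, while both bars of bta-miR-98 are nearly equal (2746 and 2732).

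The number of distinct read sequences did not follow the level throughout. Bta-let-7f was built from 87 to 125 distinct sequences per library and bta-let-7a-5p from 83 to 126, and bta-let-7a-3p from 5 to 11. Bta-miR-98 had 13 to 24 (mean 18.1), fewer than the less abundant bta-let-7d with 19 to 30 (mean 24.1) and bta-let-7c with 23 to 28 (mean 25.6). The listed loci of the members are 22 bases long except those of bta-let-7e and bta-let-7a-3p with 21.

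The percentage of full reads left after division was steady between libraries for most members. Divided reads were 49.8% to 49.9% of full reads for bta-let-7g in all 8 libraries and 49.9% for bta-let-7i. For bta-let-7c they were 43.7%, 42.9%, 43.7% and 42.8% in forage replicates 1 to 4 and 43.4%, 38.2%, 42.5% and 41.7% in HG replicates 1 to 4. The value in HG replicate 2 was thus the lowest, and those of the other 3 HG libraries overlapped the forage range in 1 case. The mean went from 43.2% ± 0.505 (SD, n = 4) to 41.5% ± 2.29 (SD, n = 4), lower in 4 of 4 cows, a within-cow difference of −1.80 percentage points that was −0.831 without replicate 2. The exact two-sided sign-flip permutation test over the 4 cows gave p = 0.125, which is the smallest it can give. For bta-let-7a-3p, divided reads were 25.0% of full reads in 7 libraries and 33.4% in HG replicate 2.

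As a share of all miRNA reads the family hardly varied. The sum of full reads counts a read once for every member it matches and so is an upper bound, and the sum of divided reads, if the portions of human entries and further loci are left out of it as the divisors look, is a lower bound. By full reads the family took 11.4%, 11.3%, 11.6% and 11.4% of the miRNA reads in forage replicates 1 to 4 and 11.3%, 10.8%, 11.5% and 11.4% in HG replicates 1 to 4. By divided reads it took 3.94%, 3.95%, 4.03% and 3.97% on the forage diet and 3.92%, 3.68%, 4.00% and 3.96% on the HG diet. The diets overlapped, and the lowest library was HG replicate 2 by both counts.

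By divided reads, the mean share on forage was 3.97% ± 0.0407 (SD, n = 4), and on HG it was 3.89% ± 0.142 (SD, n = 4). Each of the 4 cows had the lower share on the HG diet, with a mean within-cow difference of −0.0818 percentage points, and the exact sign-flip permutation test gave p = 0.125, the smallest that 4 cows allow. Without pairs, the exact permutation test gave p = 0.343. Without replicate 2 the within-cow difference was −0.0203 percentage points. As a share of all reads of the library, by contrast, the family ranged from 0.763% to 3.33% by full reads, because the miRNA reads themselves did.

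Within the family, the shares of the diets did not overlap for bta-let-7b. It took 8.58%, 8.41%, 8.64% and 8.65% of the family's divided reads in forage replicates 1 to 4 and 8.84%, 9.42%, 8.91% and 8.68% in HG replicates 1 to 4. All HG libraries lay above all forage libraries, in HG replicate 4 by a small margin. The mean within-cow difference was 0.393 percentage points (0.184 without replicate 2). The exact sign-flip test gave p = 0.125 and the exact unpaired permutation test p = 0.0286, each the smallest it can give, for 1 of 10 members examined and without adjustment. Allowing for the 10 members examined, neither test passed 0.05. As RPM, and after TMM normalization, the libraries of both diets overlapped for bta-let-7b. For the other 9 members the within-family shares had an exact sign-flip p of 0.375 to 0.875.

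The 3p arms were rare, with 1 exception. Bta-let-7a-3p, the only 3p entry with a bovine name, stood at 4.95 to 7.55 full reads per 1000 reads of bta-let-7a-5p in the 4 forage libraries, at 6.20, 6.30 and 6.31 in HG replicates 1, 3 and 4, and at 12.2 in HG replicate 2. Hsa-let-7i-3p, found at the bovine let-7i locus through its human name, had 187 reads and stood at 4.70 to 6.95 per 1000 reads of bta-let-7i. Hsa-let-7d-3p was far more frequent relative to its 5p arm, with 962 reads and 121 to 127 per 1000 reads of bta-let-7d on the forage diet. It stood at 155, 132 and 108 in HG replicates 1, 3 and 4 and at 77.0 in HG replicate 2, the lowest value. The 3p arms of let-7c, let-7e, let-7f-1 and let-7f-2 had 2, 2, 21 and 27 reads in all. Outside HG replicate 2, the 3p arm of let-7d stood at 263 to 343 RPM, above the 154 to 233 RPM of bta-let-7a-3p, although let-7d itself was far below let-7a. In HG replicate 2 the order was reversed, with 193 RPM for hsa-let-7d-3p and 381 for bta-let-7a-3p.

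The ratio of let-7a arms was compared between the diets. By divided reads, 3p reads per 1000 5p reads were 9.15 ± 1.68 (SD, n = 4) on forage and 13.2 ± 7.57 (SD, n = 4) on HG, higher in 2 of 4 cows, and the exact sign-flip permutation test gave p = 0.625. Without replicate 2 the within-cow difference went from 4.00 to −0.06. By both counts the ratio in HG replicate 2 was above all other libraries.

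**Figure D3:**
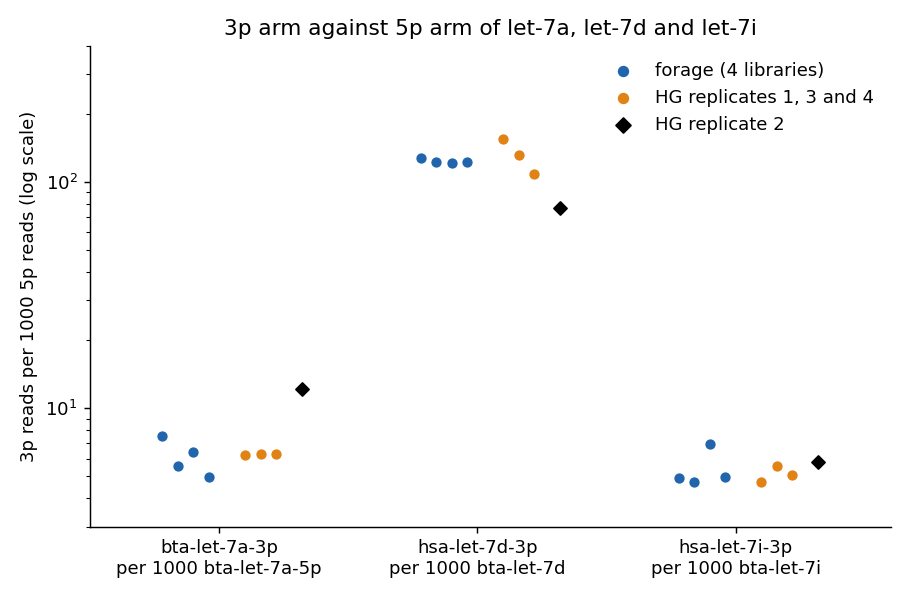
Full reads of the 3p arm per 1000 reads of the 5p arm (y axis, log scale) for let-7a, let-7d and let-7i, with 1 point per library. Let-7d lies between 77.0 and 155 while let-7a and let-7i lie between 4.70 and 12.2, and HG replicate 2 (black diamonds) is highest for let-7a and lowest for let-7d.

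In HG replicate 2 some members lay above and some below the other 7 libraries. Bta-let-7a-3p had 128 reads there, 381 RPM (95% Wilson interval 320 to 453), against 154 to 233 RPM in the other 7 libraries, 1.98 times their mean. Bta-let-7e stood at 833 RPM (95% Wilson interval 741 to 936) against 536 to 682, 1.34 times the mean. Both 95% intervals lay above the values of all other libraries.

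On the other side were bta-let-7g, at 20131 RPM (95% Wilson interval 19661 to 20611) against 23108 to 24246 and 0.848 times the mean, and bta-miR-98, at 2413 against 2644 to 3045 and 0.864 times the mean. Bta-let-7c was at 1428 RPM against 1480 to 1739 (0.879 times), and bta-let-7f at 31340 against 33390 to 33986 (0.928 times). Bta-let-7a-5p, bta-let-7i, bta-let-7b and bta-let-7d stayed within the range of the other libraries, at 0.993 to 1.02 times their mean. The multi-copy members bta-let-7a-3p, bta-let-7a-5p and bta-let-7f thus lay above, within and below the other libraries, respectively.

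In all, 2 members lay above and 4 below every other library, against 84 and 144 of the 278 entries. The median absolute log2 ratio of HG replicate 2 to the other 7 libraries was 0.15 over the members and 0.36 over the 278 entries. For the other libraries it was 0.02 to 0.06 over the members and 0.08 to 0.11 over all entries. The members are more abundant than most entries, and the part of counting error in this difference was not tested. The proportions of the 10 members differed between HG replicate 2 and each of the other 7 libraries by a chi-square of 11.4 to 25.1 per degree of freedom, and between the other 21 pairs of libraries by 0.451 to 5.03.

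**Figure D4:**
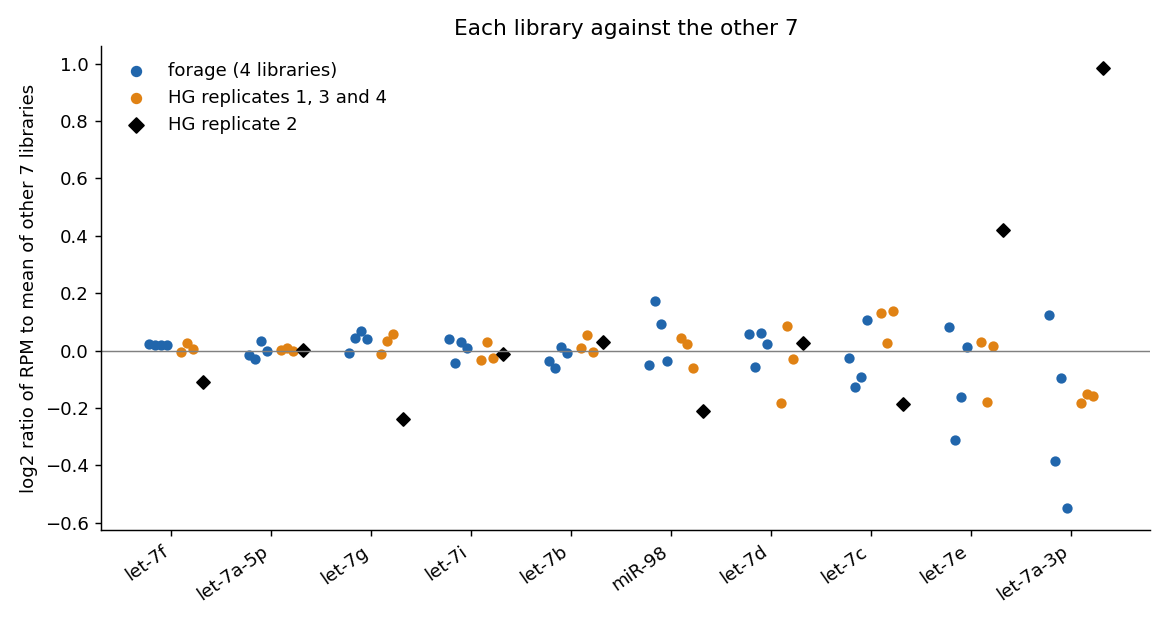
Log2 ratio of each library's RPM to the mean of the other 7 libraries (y axis) for the 10 members (x axis), with 1 point per library. HG replicate 2 (black diamonds) reaches 0.98 for let-7a-3p and 0.42 for let-7e and falls to −0.24 for let-7g, while the points of the abundant members otherwise lie close to 0.

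The spread of the members was set beside the spread that counting error alone gives. For bta-let-7f the coefficient of variation over the 4 forage libraries was 0.104%, where counting error alone gives 0.821%, and over the 7 libraries it was 0.624%, where counting gives 0.863%. For bta-let-7a-5p it was 1.68% on the forage diet where counting gives 0.858%. Bta-miR-98 varied most among the 6 most abundant members, by 6.43% where counting gives 2.86%, with 2665, 3045, 2903 and 2688 RPM in forage replicates 1 to 4. Forage replicate 2 was the highest of these, and it held the lowest bta-let-7e of all libraries, 536 RPM. Over the 8 members with at least 200 reads in every library the median ratio of observed to counting variation in the forage libraries was 1.61. Over all 101 bovine entries with at least 200 reads in every library it was 1.08. Over the 7 libraries without HG replicate 2 it was 1.52 for these members and 1.23 for the 101 entries. Over all 8 libraries, HG replicate 2 included, it was 1.73 for these members and 2.71 for all 101 entries. Counting error is smaller for abundant entries, so the same variation gives them a larger ratio. The members and the 101 entries were not matched for abundance.

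To compare the diets, full reads were tested by edgeR's quasi-likelihood test on TMM-normalized libraries, blocked by cow, and p was adjusted after Benjamini-Hochberg over all 377 entries. No member passed. The count at an adjusted p under 0.05 was 0 of 10 members and 0 of 377 entries (0%), and at an unadjusted p under 0.05 it was 0 of 10 and 9 of 377 (2.39%). DESeq2 also called 0 entries, with 3 of 377 and 0 members at an unadjusted p under 0.05. The edgeR adjusted p of the members was 0.788 to 0.957. Ranges of both diets that did not overlap were seen for 0 of 10 members and for 17 of 377 entries (4.51%), a share too small to set 10 members apart.

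Fitted log2 fold changes of the members, HG minus forage, ran from −0.03 to 0.36 with a median of 0.04, where the median of all 377 entries was 0.03. The fold was above 0 for 8 of 10 members with TMM. Scaled by miRNA reads instead, it was above 0 for 5 of 10, with a median of −0.01 (−0.02 over all entries). Relative to RPM, TMM-scaled counts of HG replicate 2 stood 0.21 higher (log2 scale) when compared with the other 7 libraries. The TMM factor, 0.921 in HG replicate 2 and higher in every other library, gave part of this shift. The rest came from the library size. It is full reads summed over entries for TMM-scaled counts and miRNA reads for RPM. Without replicate 2 the folds ran from −0.07 to 0.09, with a median of −0.01, and 2 of 10 lay above 0; 0 members were called in that fit, against 2 of 361 entries (0.554%).

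For the abundant members the fitted change was small against its standard error or of its size. Bta-let-7f had 33922, 33839, 33872 and 33860 RPM in forage replicates 1 to 4 and 33390, 31340, 33986 and 33597 in HG replicates 1 to 4. HG replicate 2 alone lay well below the others, and the ranges overlapped. The fitted log2 fold change was 0.01 (standard error 0.03), −0.01 without replicate 2.

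Bta-let-7a-5p had 30820, 30520, 31745 and 31058 RPM on the forage diet and 31155, 31123, 31287 and 31038 on the HG diet. The HG libraries all lay inside the forage range. Its log2 fold change with TMM was 0.06 (standard error 0.05), −0.00 without replicate 2.

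Bta-let-7g had 23177, 23929, 24246 and 23862 RPM on the forage diet and 23108, 20131, 23758 and 24118 on the HG diet. The fit gave a log2 fold change of −0.02 (standard error 0.03), −0.01 without replicate 2. Bta-let-7i went from 10899 ± 244 (SD, n = 4) to 10773 ± 191 RPM (SD, n = 4), with a TMM log2 fold change of 0.03 (standard error 0.06) that was −0.03 without replicate 2 and −0.02 when scaled by miRNA reads. Both are single-copy members, and neither passed the test.

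Only bta-let-7b and bta-let-7c were higher on the HG diet in 4 of 4 cows on the TMM scale, as were 32 of 377 entries (8.49%), and 0 members were lower in all 4, as were 28 entries (7.43%). Bta-let-7b had 6834, 6720, 7030 and 6946 RPM on the forage diet and 7021, 7113, 7216 and 6957 on the HG diet. The lower HG libraries lay inside the forage range. Its log2 fold change was 0.09 (standard error 0.06; edgeR adjusted p = 0.788), and 0.03 (standard error 0.02) without replicate 2.

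Bta-let-7c had 1574, 1480, 1511 and 1706 RPM on the forage diet and 1733, 1428, 1625 and 1739 on the HG diet. HG replicate 2 was the lowest of all 8 libraries in RPM, so that by RPM bta-let-7c was higher in 3 of 4 cows. The fit gave a log2 fold change of 0.10 (standard error 0.06; edgeR adjusted p = 0.788), and 0.09 (standard error 0.05) without replicate 2. By divided reads the fold was 0.02 (standard error 0.07; edgeR adjusted p = 0.964) over all 4 pairs.

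The X-linked neighbour bta-miR-98 went from 2825 ± 182 (SD, n = 4) to 2666 ± 186 RPM (SD, n = 4). Its log2 fold change was −0.03 (standard error 0.06), −0.00 without replicate 2. Bta-let-7d had 2560, 2389, 2563 and 2504 RPM on the forage diet and 2212, 2511, 2603 and 2430 on the HG diet, with HG replicate 1 the lowest. The fitted log2 fold change was 0.01 (standard error 0.09), and −0.07 (standard error 0.05) without replicate 2. Its sign also turned under RLE size factors (−0.00195), DESeq2 (−0.00183), a minimum of 10 reads in every library (−0.00437), divided reads (−0.0112) and scaling by miRNA reads (−0.0394), so that no direction is given for bta-let-7d.

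Among the members, the largest fitted folds belonged to the rarest ones and rested on HG replicate 2. Bta-let-7e had 682, 536, 588 and 654 RPM on the forage diet and 660, 833, 581 and 654 on the HG diet. Its log2 fold change of 0.20 (standard error 0.17; edgeR adjusted p = 0.788) became −0.02 without replicate 2. Bta-let-7a-3p had 233, 170, 204 and 154 RPM on the forage diet and 193, 381, 197 and 196 on the HG diet. Its log2 fold change of 0.36 (standard error 0.29; edgeR adjusted p = 0.788) became −0.01 (standard error 0.14). For both, HG replicates 1, 3 and 4 lay inside the forage range.

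**Figure D5:**
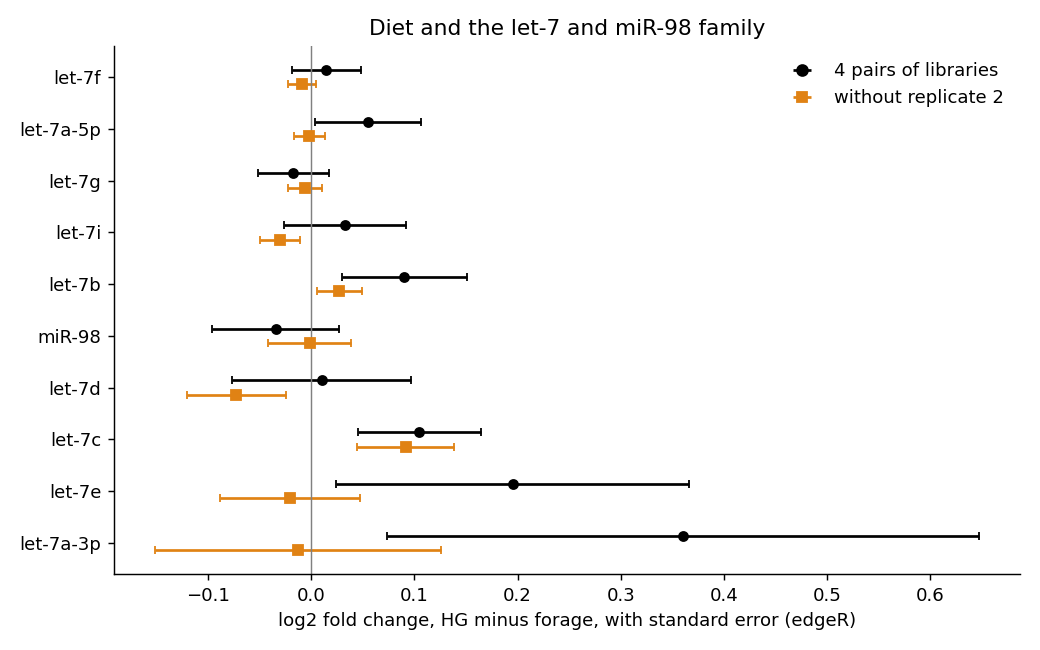
Log2 fold change of each member (y axis) between the diets, HG minus forage (x axis), from edgeR with the cow as a block. Circles use all 4 pairs of libraries and squares leave out replicate 2, with bars of 1 standard error. Let-7a-3p (0.36) and let-7e (0.20) fall to about 0 without replicate 2, and let-7c is at 0.09 without it.

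The miRNAs whose genes lie beside let-7 genes did not pass the test of diet either. Of bta-miR-99a-5p, bta-miR-99b, bta-miR-100, bta-miR-125a and bta-miR-125b, 0 of 5 were called and 0 had an unadjusted p under 0.05 in edgeR's test. Their log2 fold changes were 0.00 to 0.13 with a median of 0.07, 5 of 5 above 0 with TMM and 3 of 5 without replicate 2. In HG replicate 2, cluster partners moved alike in some cases and not in others. Bta-miR-99b, beside bta-let-7e, was 1.28 times the mean of the other 7 libraries, close to the 1.34 times of bta-let-7e, whereas bta-miR-125a, on the other side of bta-let-7e, was 0.789 times. Bta-let-7c was 0.879 times and its neighbour bta-miR-99a-5p 1.07 times. Bta-miR-98 was 0.864 times and bta-let-7f, which has 1 of its 2 genes next to MIR98, 0.928 times.

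Of the bovine entries outside the family with at least 100 reads in every library (110 entries), the 5 whose profile over the 8 libraries was most like that of the summed family were bta-miR-26b, bta-miR-186, bta-miR-30d, bta-miR-22-3p and bta-miR-26a. Likeness was the root-mean-square difference of centred log2 TMM counts, which was 0.02 for bta-miR-26b and 0.03 for the other 4, with a median of 0.13 over the 110 entries. The family itself varied by only 0.04 (SD, log2 scale) over the libraries, so that likeness here means a flat profile. Over the 7 libraries without HG replicate 2 these 5 entries ranked 12, 10, 18, 24 and 4.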

How the data were processed

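Small RNA from rumen fluid was sequenced (single-end reads) from 4 cows on 2 diets, 8 libraries in all. The authors demultiplexed with bcl2fastq 2.20, trimmed with Skewer, removed short and low-quality reads, and mapped with Bowtie inside sRNAbench to UMD3.1 with 2 mismatches allowed, with miRBase 22 entries of cow and human as reference. Per library the authors deposited read counts per mature entry (a read counted in full at each entry) and expected counts (reads adjusted for multiple mapping, by a rule not given in the sources used here). The deposited score, RPM of miRNA reads, gave the number of miRNA reads, and the deposited RPM of all reads gave the library total. The authors' table of normalized values was not used.

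Entries were kept if any library held 10 or more reads (377 of 565). Diet was tested over all of them with edgeR 4.0.16 in R 4.3.3 (TMM, the study's model of cow plus diet, glmQLFit and glmQLFTest, two-sided), and the Benjamini-Hochberg adjusted p was held against 0.05. DESeq2 1.42.0, RLE size factors, other filters, expected counts rounded to whole numbers, bovine entries alone, no replicate block and leaving out each cow or library were alternatives. Scaling by miRNA reads was added after seeing the data. Single values per library were compared by exact two-sided sign-flip permutation over the 4 cows, which cannot give p below 0.125. Python 3.11.15, pandas 2.3.3, numpy 2.4.6 and scipy 1.17.1 served for the rest, and the count test was tested on simulated data.

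Same-numbered libraries were treated as 1 cow: the design samples each cow on both diets and the titles number the libraries alike, but no title names a cow. As a check, each library's deviations from its diet's mean were correlated across 278 entries, with r of −0.204 to 0.0670 for equal numbers (4 pairs) and −0.264 to 0.268 for unequal ones (12 pairs), so the counts do not show the pairing. All 10 members were named, with the 5 cluster neighbours, the let-7 human entries, the 5 most alike entries and 4 lists of cell type markers. The members and lists were chosen with earlier results of these data known. Mature sequences and papillae libraries were not used here.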

Additional observations from a re-analysis of the deposited data

Results flagged for a closer look

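Of 66 groups of 4 libraries examined for a library far from the other 3, 8 held one, where chance alone gives about 1 in 20. In 5 of the 8 it was HG replicate 2. Bta-let-7a-3p stood there at 381 RPM, with 193 to 197 in the other HG libraries, at 24.5 divided reads per 1000 of bta-let-7a-5p, with 9.27 to 9.43, and at 0.345% of the family's divided reads, with 0.123% to 0.124%. Its divided reads were 33.4% of its full reads, with 25.0% in the others, and those of bta-let-7b were 48.8%, with 49.4% in the others. The first 4 of these values all rest on the same 128 reads of bta-let-7a-3p, and that of bta-let-7b on 2391 reads.

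The other 3 concerned the percentage of full reads left after division and were small. It was 49.885% for bta-let-7i in HG replicate 4 (others from 49.9%), 49.887% for bta-let-7d in HG replicate 1 (others 49.5%) and 98.8% for bta-miR-98 in forage replicate 3 (others 99.7%).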

How the results depend on the processing

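The count of members called was 0 under all 20 alternatives, with a lowest member adjusted p of 0.548. Without the replicate block it was also 0 (lowest adjusted p 0.678), and the unpaired exact permutation test gave p = 0.343 for the family share, 0.457 for the let-7a arm ratio and 0.0286 for the within-family share of bta-let-7b (0.393 percentage points higher), unadjusted. Without the replicate block and without forage replicate 4, 1 of 10 members and 7 of 376 entries had an unadjusted edgeR p under 0.05, and 0 were called. By divided reads 6 of 10 members kept their rank. The log2 fold change of bta-let-7f turned to −0.00906 with divided reads and −0.0350 with miRNA reads as library size, that of bta-let-7i to −0.0165 with the latter, and that of bta-let-7d to −0.00195 with RLE size factors, −0.00183 with DESeq2, −0.00437 with at least 10 reads in every library, −0.0112 with divided reads and −0.0394 with miRNA reads as library size. Without the replicate block and without HG replicate 2 the folds were −0.0165 (bta-let-7f), −0.0230 (bta-let-7i), −0.00160 (bta-let-7a-5p) and −0.0537 (bta-let-7d), and that of bta-let-7d was −0.00792 without forage replicate 2 and −0.0130 without HG replicate 3. Leaving out 1 cow at a time, fold changes ranged from −0.0127 to 0.559 (bta-let-7a-3p), −0.00162 to 0.0801 (bta-let-7a-5p), −0.0723 to 0.0742 (bta-let-7d), −0.0207 to 0.267 (bta-let-7e), −0.00887 to 0.0183 (bta-let-7f) and −0.0301 to 0.0564 (bta-let-7i), in each case lowest without replicate 2; the let-7a arm ratio from −0.0595 to 6.0003; within-family shares from −0.000301 to 0.0870 (bta-let-7a-3p), −0.0138 to 0.0861 (bta-let-7c), −0.145 to 0.119 (bta-let-7d), −0.00161 to 0.150 (bta-let-7e), −1.08 to 0.0300 (bta-let-7g), −0.231 to 0.364 (bta-let-7i) and −0.479 to 0.0425 (bta-miR-98); and divided as a percentage of full reads from −0.0180 to 0.00775 (bta-let-7a-5p), −0.0625 to 0.0824 (bta-let-7d), −0.243 to 0.709 (bta-let-7e), −0.0551 to 0.0206 (bta-let-7f), −0.0104 to 0.0203 (bta-let-7i) and −0.0338 to 0.217 (bta-miR-98). The family share difference stayed below 0, from −0.104 to −0.0203 when leaving out 1 cow, and from −0.119 to −0.0127 when leaving out 1 library without the block. With divided reads the fold change of bta-let-7c was 0.0189 (adjusted p 0.964), against 0.105 with full reads. With 4 cows the sign-flip test cannot reach 0.05, and bta-let-7a-3p rests on 51 to 128 reads per library. The cause of these shifts was not tested.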
